A study of Mus musculus with 6 samples.

Results

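Nucleoporins and nuclear transport receptors were examined in mouse two-cell embryos that overexpressed the E3 SUMO ligase PIASy. The genes were the protein-coding entries whose symbol begins with Nup, Kpna, Kpnb, Ipo, Xpo or Tnpo followed by a number, which gave 43 genes out of 53023 in the expression table, of which 21963 were protein-coding. They comprised 21 nucleoporins, 6 importin alphas (Kpna), 11 importin betas (Kpnb1, Ipo and Tnpo) and 5 exportins (Xpo). RNA-seq had been performed at 28 hours post-insemination (hpi) on 3 groups of ICR mouse embryos produced by in vitro fertilization, with 2 libraries per group and 5 embryos pooled per library. The non-injection group received no mRNA. In the PIASy-WT group, synthetic mRNA encoding mCherry-HA-tagged wild-type PIASy had been injected into the cytoplasm at 100 ng/µl between 1.5 and 3 hpi, and the PIASy-Mut group received the same kind of mRNA with the C335F substitution (cysteine to phenylalanine), which inactivates the SUMO ligase. Fluorescent embryos were selected at 9 hpi. All embryos also carried their own Pias4 gene, and no group was injected with an mRNA for an unrelated protein. The comparisons ask which transport genes differ in PIASy-WT embryos at the time when major zygotic genome activation (ZGA) has taken place, and whether they also differ when the ligase is inactive.

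The nuclear pore complex is the channel through which proteins and RNA pass between the cytoplasm and the nucleus. Its scaffold is built from the Y complex and the inner ring, its central channel is filled by nucleoporins rich in phenylalanine-glycine (FG) repeats, and filaments extend from it on the cytoplasmic side and as a basket on the nuclear side. Importin alphas bind a classical nuclear localization signal and join importin beta (Kpnb1), which carries the pair through the pore, whereas other importin betas and the exportins bind their cargo directly, and the small GTPase Ran sets the direction. Oocytes store much of this machinery as mRNA and protein for use after fertilization, and Kpna7 is the importin alpha known for its expression in oocytes and early embryos.

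The libraries held 871663 to 1363928 fragments on genes, with the smallest number in PIASy-Mut replicate 2, and 17785 to 20407 genes were above 0. A count of 3 fragments corresponded to 2.20 to 3.44 CPM. Pias4, which encodes PIASy and to which the injected mRNA also maps, was at 2.98 and 3.59 FPKM (fragments scaled by gene length and library size) in non-injection, 862 and 611 with PIASy-Mut and 610 and 579 with PIASy-WT, so the injected and non-injected libraries matched their labels, while this level does not tell PIASy-Mut from PIASy-WT. Markers of the two-cell embryo (Zscan4d, Zfp352, Tdpoz4, Obox3, Dppa2 and Usp17la) were all present. Their summed FPKM was 600 to 708 in non-injection, 669 to 737 with PIASy-Mut and 282 to 391 with PIASy-WT. Zfp352, Tdpoz4, Obox3 and Dppa2 were lower in both PIASy-WT libraries than in all other libraries. Zscan4d in PIASy-WT overlapped both other groups. Usp17la was above non-injection in both PIASy-WT libraries and overlapped PIASy-Mut. Of 9 cumulus cell markers, 7 had at most 3 fragments in every library and 3 (Amh, Inhba and Pgr) were at 0 in all of them. Their sum was 2.03 to 2.07 FPKM in non-injection, 3.06 to 6.41 with PIASy-Mut and 5.82 to 5.85 with PIASy-WT, most of it from Tnfaip6. The part of these marker differences in the results for transport genes was not tested.

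Of the 43 transport genes, 41 reached 1 FPKM in 2 or more libraries and were tested. Nup210 and Ipo13 did not. Xpo1, Nup62cl, Kpna1 and Kpna2 fell in PIASy-WT against both non-injection and PIASy-Mut, and no transport gene rose (limma on log2(FPKM + 1), Benjamini-Hochberg adjusted P of at most 0.05 over 16100 genes). The 4 genes were 9.76% of those tested. Among all genes tested, 5.76% fell against non-injection and 6.01% against PIASy-Mut, while 1.03% and 0.82% rose. Among the 8844 genes with a mean of at least 10 fragments per library, 9.42% fell against non-injection and 9.8% against PIASy-Mut, so the 4 of 40 transport genes at that depth (10%) were close to the share of other genes counted as deeply. In both comparisons at once, 4.66% of all genes tested fell and 0.429% rose. With the further requirement of the study that a log2 change be 2 or more in either direction, 3 of the 4 were kept (Xpo1, Nup62cl and Kpna1), beside 3.81% and 4.06% of all genes that fell and 0.602% and 0.516% that rose. At an unadjusted P under 0.05, 19 transport genes were lower and 2 higher against non-injection, and 16 were lower and 2 higher against PIASy-Mut, beside 17.6% and 10.6% of all genes and 18.2% and 9.46%. The same FPKM table tested as fragments with limma voom gave 17 lower and 2 higher against non-injection, and 15 lower and 0 higher against PIASy-Mut, beside 11.8% and 4.99% of all genes and 11.7% and 3.31%. In RNA from whole embryos, fewer cells holding a transcript and less of it per cell cannot be told apart.

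The calls depended on which libraries were kept. Leaving out either non-injection library or either PIASy-WT library left no gene called in either comparison of PIASy-WT, the transport genes included. This loss of calls therefore applies to every gene and not to the transport genes in particular. The median log2 fold change of the transport genes was then -1.00 to -0.73 against non-injection and -1.00 to -0.67 against PIASy-Mut. Over all genes tested it was -0.04 to 0.03. Leaving out PIASy-Mut replicate 1 gave 11 lower and 1 higher against non-injection, beside 9.66% and 4.42% of all genes, and 0 against PIASy-Mut, where 0 of 16100 genes were called. Leaving out PIASy-Mut replicate 2 gave 11 lower and 1 higher against non-injection and 13 lower and 1 higher against PIASy-Mut, beside 10% and 4.37% of all genes and 11% and 5.37%. The comparisons of PIASy-WT share the PIASy-WT libraries, so a call in both is not a repeated observation.

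The distribution of the whole group lay below that of other genes. The median log2 fold change of the 41 genes was -0.89 against non-injection and was -0.84 against PIASy-Mut, beside 0.01 and -0.03 over all genes tested. Both PIASy-WT libraries lay below all 4 other libraries for 24 of the 41 genes (58.5%) and above them for 6 (14.6%). The same held for 24.4% and 19.9% of all genes tested, and for 29.2% and 22.1% of protein-coding genes tested. When only genes reaching 5 FPKM in 2 or more libraries were taken, 20 of 31 transport genes (64.5%) lay below and 5 (16.1%) above, beside 39% and 25.1% of protein-coding genes at that level.

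**Figure D1:**
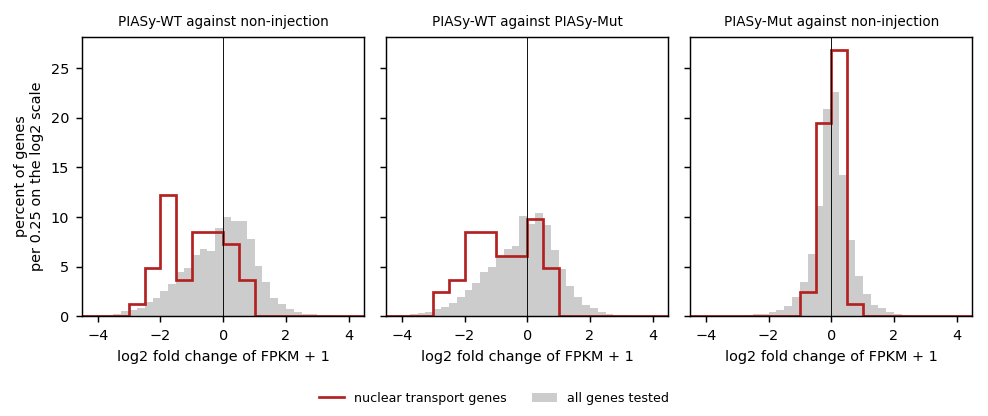
Distribution of the log2 fold change of FPKM + 1 (x axis) for the 41 nuclear transport genes tested (red outline, bins of 0.5) and for all 16100 genes tested (grey bars, bins of 0.25), each scaled to the percent of genes per 0.25 on the log2 scale (y axis), in the 3 comparisons. In both comparisons of PIASy-WT the red outline is shifted to the left within the range of the grey bars, with medians of -0.89 and -0.84, and in PIASy-Mut against non-injection it is centred near 0, with a median of 0.04.

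**Figure D2:**
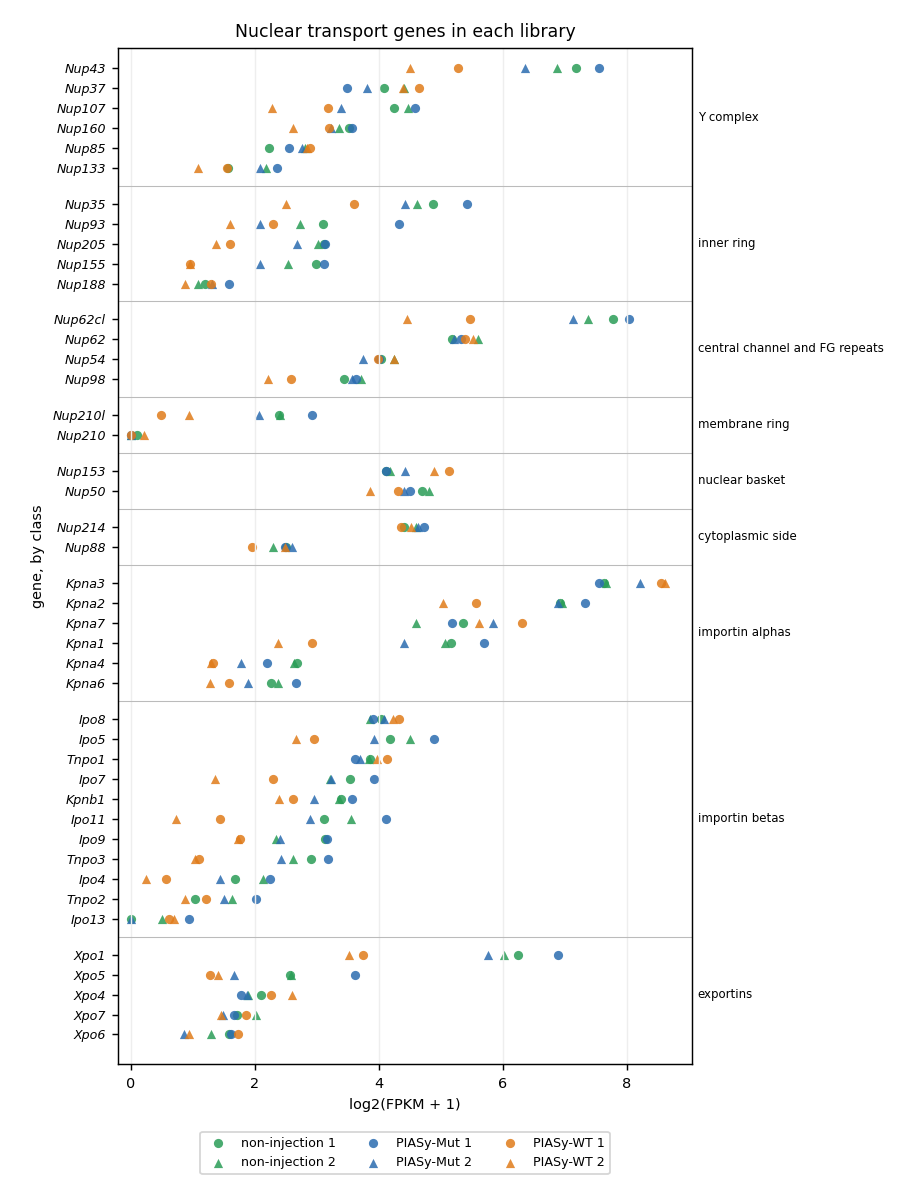
Level of each of the 43 nuclear transport genes, as log2(FPKM + 1) (x axis), in each of the 6 libraries, grouped by class (y axis). Colour stands for the group and shape for the replicate. The PIASy-WT points stand to the left of all others for 24 of the 41 genes tested, with the widest gaps for Xpo1, Nup62cl and Kpna1, and to the right of them for 6, including Kpna3 and Nup153.

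The 250 bases before the transcription start of the genes that fell (Xpo1, Kpna2 and Nup62cl) and of Kpna7 are shown to set the first 3 beside the oocyte importin alpha. Sequences and start sites are from RefSeq (GRCm38.p6), which gave windows for 34 of the 43 genes and none for Kpna1, and are written 5′ to 3′ on the strand of the gene. Capitals mark the CCAAT box (CCAAT, or ATTGG on the other strand) and the GC box (GGGCGG, or CCGCCC). The windows are chr11:23255791-23256040 (plus strand) for Xpo1, chr11:106999526-106999775 (minus strand) for Kpna2, chrX:140062569-140062818 (minus strand) for Nup62cl and chr5:145009637-145009886 (minus strand) for Kpna7. Start sites differ between RefSeq and the expression table, so that all 250 bases of the Kpna7 window, 144 of that of Nup62cl and 16 of that of Kpna2 lie inside the range that the table gives for the gene.
Xpo1: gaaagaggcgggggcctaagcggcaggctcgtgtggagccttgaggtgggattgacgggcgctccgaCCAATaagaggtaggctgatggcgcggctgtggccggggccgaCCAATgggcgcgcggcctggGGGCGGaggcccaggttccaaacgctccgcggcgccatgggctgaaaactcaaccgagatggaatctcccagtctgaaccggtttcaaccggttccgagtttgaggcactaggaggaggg
Kpna2: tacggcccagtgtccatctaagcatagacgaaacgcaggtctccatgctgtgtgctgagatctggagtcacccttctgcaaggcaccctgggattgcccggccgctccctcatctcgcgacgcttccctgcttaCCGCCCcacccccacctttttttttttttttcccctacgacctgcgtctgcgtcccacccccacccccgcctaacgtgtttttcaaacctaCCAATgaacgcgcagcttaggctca
Nup62cl: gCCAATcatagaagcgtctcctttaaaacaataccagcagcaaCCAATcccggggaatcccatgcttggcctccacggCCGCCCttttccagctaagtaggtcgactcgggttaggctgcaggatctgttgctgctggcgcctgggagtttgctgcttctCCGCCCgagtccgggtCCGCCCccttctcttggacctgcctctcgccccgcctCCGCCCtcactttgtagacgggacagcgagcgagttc
Kpna7: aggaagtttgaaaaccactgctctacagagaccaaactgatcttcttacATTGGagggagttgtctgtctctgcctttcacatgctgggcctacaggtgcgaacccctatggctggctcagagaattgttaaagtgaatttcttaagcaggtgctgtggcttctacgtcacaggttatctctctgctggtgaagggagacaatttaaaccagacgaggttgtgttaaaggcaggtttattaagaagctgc
Xpo1 has 2 CCAAT boxes and 1 GC box, Kpna2 has 1 of each, and Nup62cl has 2 CCAAT boxes and 4 GC boxes. Kpna7 has 1 CCAAT box and no GC box. Bases G and C make up 65.2%, 57.6% and 60.8% of the windows of Xpo1, Kpna2 and Nup62cl and 46% of that of Kpna7.

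In the 250 bases before the start, 25 of 41 windows of the transport genes (61%) held a GC box and 21 (51.2%) a CCAAT box. The shares of all 32851 windows were 32.7% and 33.8%. The ETS core (CCGGAA, or TTCCGG) was in 29.3% and 12%, and the E-box (CACGTG) in 12.2% and 6.02%. The TATA box (TATAAA, or TTTATA) was in 9.76% and 12.4%, and TAATCC (or GGATTA), the core bound by OTX- and OBOX-type homeodomains, in 2.44% and 6.25%. The median GC content was 64% for the transport genes and 52.4% for all windows, and the motif shares were not separated from base composition. A match is a description of these letters and does not show binding.

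Among the 21 nucleoporins, 1 fell, 0 rose and 19 did not pass in either comparison of PIASy-WT, while Nup210 was not tested. The share of all genes tested that fell was 5.76% and 6.01%. For 11 of the 20 tested both PIASy-WT libraries were below all others, and for 2, Nup153 and Nup85, they were above, beside 24.4% and 19.9% of all genes tested and 29.2% and 22.1% of protein-coding ones. The gene that fell was Nup62cl (ENSMUSG00000072944.11, chrX:140006805-140062712, minus strand, mm10), whose product resembles the C-terminal part of the channel nucleoporin Nup62. It was at 218 and 165 FPKM in non-injection, 262 and 140 with PIASy-Mut and 43.2 and 21.0 with PIASy-WT. The PIASy-WT libraries were far below the other 4, while PIASy-Mut and non-injection overlapped. The log2 fold change was -2.61 ± 0.45 (SE; adjusted P = 0.0339) against non-injection and -2.63 ± 0.45 (adjusted P = 0.0329) against PIASy-Mut, a ratio of mean FPKM of 5.96 and 6.26. Nup62cl was the most abundant nucleoporin outside PIASy-WT and made up 33.6% ± 4.15 (SD, n = 2) of the summed nucleoporin FPKM in non-injection, 34.5% ± 2.55 with PIASy-Mut and 12.2% ± 4.09 with PIASy-WT.

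The other 3 genes of the central channel did not pass in either comparison. Nup62 itself, the FG-repeat protein of the channel, was at 35.2 and 47.7 FPKM in non-injection, 39.0 and 36.2 with PIASy-Mut and 41.2 and 45.1 with PIASy-WT. The PIASy-WT values overlapped those of non-injection and were slightly above those of PIASy-Mut. The estimated log2 fold change was 0.07 compared with non-injection, with a 95% interval of -0.56 to 0.70, which does not reach a change of 1 in size in either direction. Its partner Nup54 had a log2 fold change of -0.02 (-0.70 to 0.66). Nup98, an FG nucleoporin that also binds chromatin, was at 9.89 and 12.2 FPKM in non-injection, 11.5 and 10.9 with PIASy-Mut and 5.03 and 3.66 with PIASy-WT. Both PIASy-WT libraries were the lowest, but the log2 fold changes of -1.18 ± 0.31 (adjusted P = 0.0741) and -1.20 ± 0.31 (adjusted P = 0.072) did not pass. Nup54 shares 13.9% of its 50-base sequences with other genes, so some of its reads may have been left out as not unique.

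None of the 6 Y complex genes passed the test, and 4 of them (Nup43, Nup107, Nup160 and Nup133) had both PIASy-WT libraries below all others. That order held for 24.4% of all genes tested and 29.2% of protein-coding ones. Nup43, a small beta-propeller subunit and the most abundant Y complex gene, was at 145 and 117 FPKM in non-injection, 186 and 81.6 with PIASy-Mut and 38.0 and 21.8 with PIASy-WT. PIASy-WT did not overlap the other groups, and the log2 fold changes of -2.14 ± 0.47 (adjusted P = 0.0509) and -2.06 ± 0.47 (adjusted P = 0.0545) just missed the threshold. Nup133, the least abundant, was at 1.98 and 3.52 FPKM in non-injection, 4.13 and 3.26 with PIASy-Mut and 1.93 and 1.11 with PIASy-WT, which rest on 9 to 30 fragments. These values nearly met at replicate 1 of non-injection and PIASy-WT, and the adjusted P was 0.427 and 0.225. Nup37 and Nup85, subunits of the same complex, had log2 fold changes of 0.27 (-0.43 to 0.98) and 0.35 (-0.51 to 1.22) against non-injection. Against PIASy-Mut they were 0.87 (0.17 to 1.58) for Nup37, with both PIASy-WT libraries above both of PIASy-Mut, and 0.22 (-0.65 to 1.08) for Nup85, and neither passed (adjusted P = 0.118 and 0.731).

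The 5 inner ring genes, which line the scaffold around the channel, had log2 fold changes between -1.81 (Nup155) and -0.06 (Nup188) against non-injection and between -1.87 (Nup35) and -0.36 (Nup188) against PIASy-Mut, and none passed. Nup35, which anchors the ring at the membrane, was at 28.5 and 23.6 FPKM in non-injection, 42.0 and 20.4 with PIASy-Mut and 11.2 and 4.65 with PIASy-WT. Both PIASy-WT libraries were the lowest, with an adjusted P of 0.0914 and 0.076, and the gene passed in both comparisons by voom (0.0223 and 0.0161). Nup35 shares 39.2% of its 50-base sequences with other genes, mainly Gm4353. That gene was at 22.1 and 14.2 FPKM in non-injection, 32.3 and 16.9 with PIASy-Mut and 10.6 and 8.37 with PIASy-WT, the same order of groups, so the level of Nup35 is uncertain. Nup188 was at 0.836 to 2.02 FPKM in all 6 libraries, on 6 to 13 fragments, and PIASy-WT overlapped non-injection and lay below PIASy-Mut by a narrow margin. Nup205 and Nup155 had adjusted P values of 0.0522 and 0.0717 against non-injection, with PIASy-WT at 1.59 to 2.03 and 0.943 to 0.951 FPKM. For Nup93 the PIASy-Mut libraries were far apart, at 19.1 and 3.23 FPKM, and the PIASy-WT values of 3.90 and 2.04 overlapped them.

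The membrane ring was represented by Nup210l, a relative of the membrane glycoprotein gp210, rather than by Nup210. Nup210 had 0 to 2 fragments in each library. Nup210l was at 4.23 and 4.33 FPKM in non-injection, 6.61 and 3.21 with PIASy-Mut and 0.396 and 0.913 with PIASy-WT, the last on 3 and 6 fragments. The PIASy-WT libraries were well below the rest, with log2 fold changes of -1.69 ± 0.45 (adjusted P = 0.0733) and -1.79 ± 0.45 (adjusted P = 0.0661). On the scale of log2(FPKM + 1) such low values understate the change.

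The PIASy-WT libraries lay on opposite sides of the others for the nuclear basket genes, neither of which passed. Nup153, a basket protein that binds importins, was at 16.4 and 17.1 FPKM in non-injection, 16.4 and 20.6 with PIASy-Mut and 34.0 and 28.6 with PIASy-WT. Both PIASy-WT libraries were above all others, with log2 fold changes of 0.86 ± 0.27 (adjusted P = 0.102) and 0.73 ± 0.27 (adjusted P = 0.141) that did not pass. Nup50, a basket cofactor of importin alpha, was at 25.1 and 27.2 FPKM in non-injection, 21.7 and 20.3 with PIASy-Mut and 18.8 and 13.6 with PIASy-WT, with an adjusted P of 0.175 and 0.431. On the cytoplasmic side, Nup214 was at 20.3 and 23.4 FPKM in non-injection, 25.7 and 24.0 with PIASy-Mut and 19.6 and 21.9 with PIASy-WT. The PIASy-WT values overlapped those of non-injection and were below those of PIASy-Mut. The estimated log2 fold change was -0.07 (-0.68 to 0.54) against non-injection and was -0.25 (-0.86 to 0.36) against PIASy-Mut, and it turned positive under quantile normalization, at 0.21 and 0.12. Nup88, the partner of Nup214, was at 4.68 and 3.91 FPKM in non-injection, 4.64 and 5.07 with PIASy-Mut and 2.87 and 4.59 with PIASy-WT, and its PIASy-WT values overlapped those of non-injection.

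As a sum over all 21 genes, nucleoporin FPKM was 538 to 597 in non-injection, 428 to 721 with PIASy-Mut and 226 to 286 with PIASy-WT, so the PIASy-WT libraries were below the rest. Nup43 and Nup62cl carried much of that. The share of Nup43 in the sum was 23.0% ± 1.84 in non-injection and 11.5% ± 2.58 in PIASy-WT (SD, n = 2). Nup62 held 7.38% ± 2.10 and 17.2% ± 3.94, and Nup153 held 2.97% ± 0.307 and 12.3% ± 0.574, so within the nucleoporin mRNA of PIASy-WT embryos the most abundant gene was Nup62 by its mean.

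The 6 importin alphas split into genes that fell and genes that did not. Kpna1 and Kpna2 fell in both comparisons, 0 rose, and Kpna3, Kpna4, Kpna6 and Kpna7 did not pass. Among all genes tested, 5.76% fell against non-injection, 6.01% against PIASy-Mut and 4.66% in both. At a mean of at least 10 fragments per library, 9.42% fell against non-injection and 9.8% against PIASy-Mut. Kpna1 (ENSMUSG00000022905.12, chr16:35978750-36037131, plus strand), a widely expressed importin alpha, was at 34.9 and 32.7 FPKM in non-injection, 50.8 and 20.1 with PIASy-Mut and 6.58 and 4.20 with PIASy-WT. The PIASy-WT libraries were far below the other 4. The log2 fold change was -2.47 ± 0.47 (adjusted P = 0.0403) against non-injection and -2.40 ± 0.47 (adjusted P = 0.0414) against PIASy-Mut, a ratio of mean FPKM of 6.27 and 6.58. Besides the libraries left out above, Kpna1, Kpna2, Nup62cl and Xpo1 passed in neither comparison without a filter on low values, nor against PIASy-Mut with only the groups compared. By eBayes without a trend they did not pass either, except Xpo1 against PIASy-Mut. Kpna1 was also lost against PIASy-Mut with a pseudocount of 5, median ratio scaling or quantile normalization, and Nup62cl under quantile normalization.

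Kpna2 (ENSMUSG00000018362.14, chr11:106988629-106999541, minus strand) is the importin alpha abundant in pluripotent cells. It was at 121 and 123 FPKM in non-injection, 159 and 118 with PIASy-Mut and 46.5 and 31.8 with PIASy-WT. The 4 libraries outside PIASy-WT lay between 118 and 159, and both PIASy-WT libraries were below them. The log2 fold change was -1.64 ± 0.29 (adjusted P = 0.035) and -1.81 ± 0.29 (adjusted P = 0.0293), a ratio of mean FPKM of 3.11 and 3.54. Kpna2 shares 62.6% of its 50-base sequences with other genes, mainly Gm10259 and Gm10184. Only uniquely mapped reads were counted, and the latter genes had 0 to 4 and 1 to 11 fragments per library, against 105 to 474 for Kpna2.

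Kpna3 (ENSMUSG00000021929.9, chr14:61365211-61439874, minus strand), which forms a subfamily with Kpna4, was the most abundant importin alpha in every library. It was at 199 and 203 FPKM in non-injection, 186 and 297 with PIASy-Mut and 373 and 390 with PIASy-WT. Both PIASy-WT libraries were above all others, but the log2 fold changes of 0.92 ± 0.29 (adjusted P = 0.103) and 0.70 ± 0.29 (adjusted P = 0.181) did not pass. Kpna3 was the gene counted as higher when either PIASy-Mut library was left out (adjusted P = 0.0294 and 0.0291 by limma against non-injection, and 0.0286 against PIASy-Mut without its replicate 2), and it passed against non-injection with only the groups compared (0.0291) and by voom (0.0144), where Nup153 was the other gene called higher (0.0443). In the remaining 12 alternatives it did not pass against non-injection. The non-injection libraries differed from PIASy-WT by more than the replicates of either group differed, while PIASy-Mut replicate 2 lay between them.

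Kpna7 (ENSMUSG00000038770.17, chr5:144983519-145084030, minus strand), the oocyte form, was at 40.0 and 23.4 FPKM in non-injection, 35.5 and 56.7 with PIASy-Mut and 78.9 and 48.3 with PIASy-WT. PIASy-WT was above non-injection in both libraries, as for 29.8% of all genes tested, and overlapped PIASy-Mut. The log2 fold change was 0.99 ± 0.41 (adjusted P = 0.182) against non-injection and 0.45 ± 0.41 (adjusted P = 0.515) against PIASy-Mut, with 95% intervals of -0.02 to 1.99 and -0.55 to 1.46, which do not show a difference and do not bound one closely. Of 6 oocyte markers, 1 fell and 0 rose in each comparison of PIASy-WT. Among all genes tested, 5.76% and 6.01% fell and 1.03% and 0.82% rose. Zp3, a zona pellucida gene, fell (log2 fold change -1.57, adjusted P = 0.0292 against non-injection), while Bmp15, an oocyte growth factor, was at 482 and 461 FPKM in non-injection, 328 and 745 with PIASy-Mut and 1283 and 1478 with PIASy-WT (adjusted P = 0.0737 against non-injection). For the 6 oocyte genes together the summed FPKM was 5978 to 6723 in non-injection, 5327 to 6035 with PIASy-Mut and 4376 to 5372 with PIASy-WT. That sum is mostly Dppa3, at 5633 FPKM on average in non-injection and 3099 with PIASy-WT. Bmp15, Gdf9, Nlrp5 and Ooep were instead above non-injection in both PIASy-WT libraries, none passing. Over the 6 markers, log2 fold changes had a median of 0.76 relative to non-injection and 0.11 relative to PIASy-Mut. The part of these markers in the level of Kpna7 was not tested.

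Kpna4 and Kpna6, the least abundant importin alphas, had 11 to 66 fragments per library. Kpna6 was at 3.81 and 4.21 FPKM in non-injection, 5.33 and 2.73 with PIASy-Mut and 2.02 and 1.42 with PIASy-WT. For both genes the PIASy-WT libraries were the lowest, and the adjusted P against non-injection was 0.0778 for Kpna4 and 0.225 for Kpna6.

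The makeup of the importin alpha mRNA differed in PIASy-WT. The summed FPKM of the 6 genes was 391 to 404 in non-injection, 441 to 497 with PIASy-Mut and 478 to 509 with PIASy-WT, so that both injected groups were above non-injection and overlapped each other. Kpna3 made up 50.5% ± 1.88 of it in non-injection, 51.0% ± 12.4 with PIASy-Mut and 77.6% ± 5.93 with PIASy-WT (SD, n = 2). Kpna2 held 30.7% ± 1.00, 29.9% ± 8.77 and 7.90% ± 1.75, and Kpna1 held 8.50% ± 0.202, 7.79% ± 5.28 and 1.09% ± 0.292. Kpna7 held 7.94% ± 2.77, 9.74% ± 2.37 and 12.8% ± 3.82, with PIASy-WT above non-injection in both libraries and PIASy-Mut overlapping each of the other groups. In non-injection the order of levels was Kpna3, Kpna2, then Kpna1 and Kpna7, which overlapped, then Kpna4 and Kpna6. In PIASy-WT, Kpna7 stood second by its mean of 63.6 ± 21.7 FPKM, with Kpna2 at 39.1 ± 10.4, and their libraries nearly met at 48.3 and 46.5 FPKM.

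**Figure D3:**
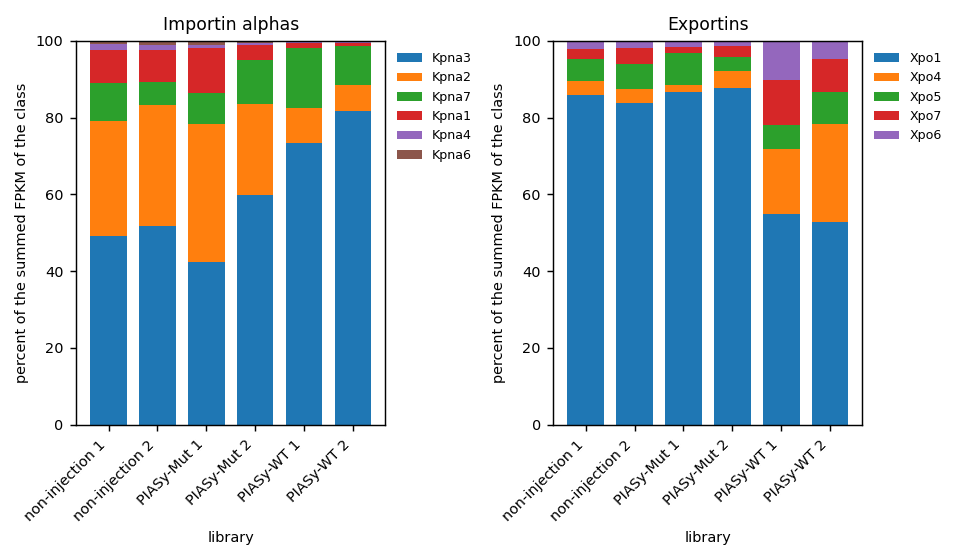
Share of each gene in the summed FPKM of its class (y axis, percent) in each of the 6 libraries (x axis), for the 6 importin alphas (left) and the 5 exportins (right). Kpna3 takes 42.3% to 59.8% of the importin alpha sum in the 4 libraries outside PIASy-WT and 73.4% and 81.8% in PIASy-WT, and Xpo1 takes 83.9% to 87.8% of the exportin sum outside PIASy-WT and 55.0% and 52.8% in PIASy-WT.

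None of the 10 importin betas tested passed in either comparison of PIASy-WT. At an unadjusted P under 0.05, 6 were lower against non-injection and 5 against PIASy-Mut, beside 17.6% and 18.2% of all genes tested. For 7 of the 10 both PIASy-WT libraries were below all others, beside 24.4% of all genes tested and 29.2% of protein-coding ones. Kpnb1 (ENSMUSG00000001440.5, chr11:97159714-97187881, minus strand), the partner of the importin alphas, was at 9.46 and 9.26 FPKM in non-injection, 10.9 and 6.79 with PIASy-Mut and 5.15 and 4.22 with PIASy-WT. Both PIASy-WT libraries were the lowest, with log2 fold changes of -0.87 ± 0.34 (adjusted P = 0.166) and -0.76 ± 0.34 (adjusted P = 0.214). Per length, the mean level of Kpnb1 in non-injection, 9.36 FPKM, was far below the importin alpha sum in every library.

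Ipo11, an import receptor known for carrying a ubiquitin-conjugating enzyme and ribosomal proteins, came closest to the threshold among importin betas. It was at 7.72 and 10.8 FPKM in non-injection, 16.4 and 6.41 with PIASy-Mut and 1.72 and 0.663 with PIASy-WT, the last on 18 and 6 fragments. The PIASy-WT libraries were far below the rest, with adjusted P values of 0.0578 and 0.0508. Ipo5 was the most abundant importin beta outside PIASy-WT by its mean, at 17.2 and 21.8 FPKM in non-injection, 28.7 and 14.1 with PIASy-Mut and 6.79 and 5.36 with PIASy-WT. Ipo5, Ipo7 and Tnpo3 had log2 fold changes of -1.53, -1.55 and -1.69 against non-injection, with adjusted P values of 0.0719, 0.0911 and 0.0615. Ipo5 and Ipo7 are receptors for ribosomal proteins and histones, and Tnpo3 carries splicing factors rich in serine and arginine.

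Ipo8 and Tnpo1 stood apart from these. Ipo8, the highest importin beta by its mean over all 6 libraries, was at 15.4 and 13.6 FPKM in non-injection, 14.1 and 15.9 with PIASy-Mut and 19.2 and 17.8 with PIASy-WT. PIASy-WT was highest by a small margin, with a log2 fold change of 0.33 (-0.30 to 0.97) against non-injection. Tnpo1, the import receptor of many RNA-binding proteins, had a log2 fold change of 0.20 (-0.44 to 0.84). Ipo8 held 15.8% ± 1.49 of the importin beta sum in non-injection and 34.3% ± 2.62 in PIASy-WT, and the sum itself was 91.4 to 92.2 FPKM in non-injection, 75.9 to 119 with PIASy-Mut and 49.4 to 59.1 with PIASy-WT.

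Of the remaining importin betas, Ipo9 and Tnpo2 had log2 fold changes of -0.99 and -0.29 against non-injection, and neither passed. Ipo4 was counted with 14 and 18 fragments in non-injection, 18 and 7 with PIASy-Mut and 3 and 1 with PIASy-WT. That gene shares 55.3% of its exon bases with Gm49378 on the same strand in GENCODE M21. Gm49378 was not found in the expression table, so how shared reads were counted is unknown. Nup188 and Tnpo2 share 12.4% and 11.7% of their exon bases with other genes on either strand, and Nup133 shares 10.4% with genes on the opposite strand. Ipo13 had 0 to 4 fragments per library and was not tested.

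Among the 5 exportins, Xpo1 fell in both comparisons, 0 rose and 4 did not pass. Of all genes tested, 5.76% fell against non-injection, 6.01% against PIASy-Mut and 4.66% in both. Xpo1 (ENSMUSG00000020290.14, chr11:23256041-23298249, plus strand) encodes CRM1, the general export receptor for proteins with a leucine-rich nuclear export signal. It was at 75.1 and 63.9 FPKM in non-injection, 117 and 53.5 with PIASy-Mut and 12.4 and 10.5 with PIASy-WT. The PIASy-WT libraries were close to each other and far below the other 4. The log2 fold change was -2.50 ± 0.40 (adjusted P = 0.0318) against non-injection and -2.69 ± 0.40 (adjusted P = 0.0272) against PIASy-Mut, a ratio of mean FPKM of 6.06 and 7.45, on 118 and 87 fragments for PIASy-WT.

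The other exportins were an order of magnitude or more below Xpo1 outside PIASy-WT. Xpo6, the actin exportin and the least abundant, was at 1.99 and 1.46 FPKM in non-injection, 2.06 and 0.814 with PIASy-Mut and 2.32 and 0.926 with PIASy-WT. Its groups overlapped fully, with a log2 fold change of -0.10 (-1.29 to 1.09) against non-injection and one of 0.10 (-1.09 to 1.29) against PIASy-Mut, and the sign turned when single libraries were left out. Xpo4 had both PIASy-WT libraries above all others, at 3.80 and 5.11 FPKM, with an adjusted P of 0.463 against non-injection. Xpo5, which exports microRNA precursors, was at 4.94 and 5.01 FPKM in non-injection and 1.42 and 1.64 in PIASy-WT, but its PIASy-Mut libraries were at 11.2 and 2.17, and the adjusted P was 0.268 and 0.258. Xpo7 in PIASy-WT overlapped both other groups, with a log2 fold change of -0.21 (-1.16 to 0.74) against non-injection. The exportin sum was 76.2 to 87.6 FPKM in non-injection, 61.0 to 135 with PIASy-Mut and 19.96 to 22.6 with PIASy-WT, and the share of Xpo1 in it was 84.8% ± 1.30, 87.3% ± 0.714 and 53.9% ± 1.51.

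**Figure D4:**
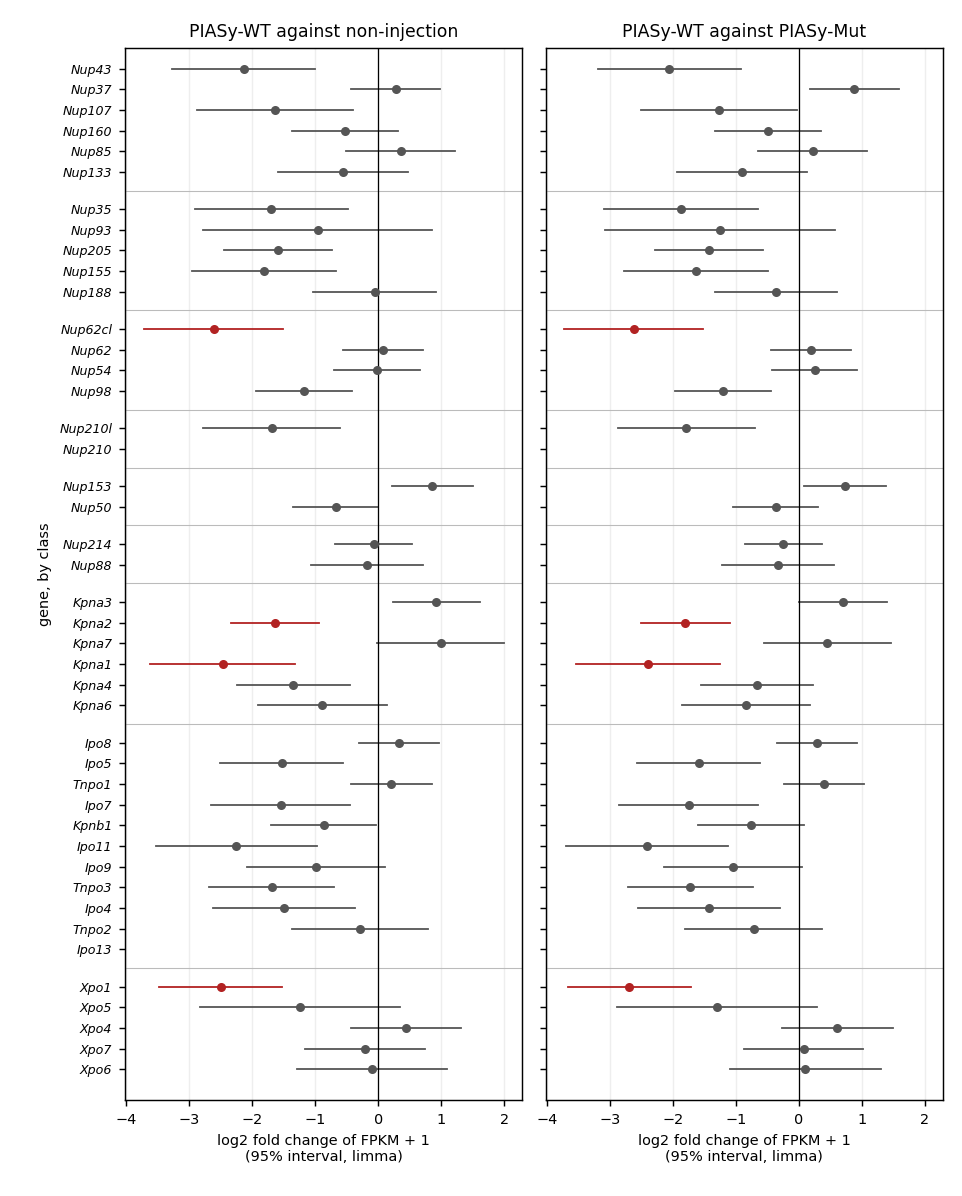
Log2 fold change of FPKM + 1 (x axis) of the 41 nuclear transport genes tested, by class (y axis), in PIASy-WT against non-injection (left) and PIASy-WT against PIASy-Mut (right). Points are limma estimates and bars their 95% intervals. Red marks an adjusted P of at most 0.05, reached by Nup62cl, Kpna2, Kpna1 and Xpo1 in both panels, and Nup210 and Ipo13 have no point because they were not tested.

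Genes of the transport pathway outside these families were also examined, from 4 lists with 40 symbols, of which 39 entries were tested. Of these, 6 fell against non-injection, 5 fell against PIASy-Mut and 0 rose (15.4% and 12.8% lower), with medians of -0.81 and -0.64. Among all genes tested 5.76% and 6.01% fell, or 9.42% and 9.8% at a mean of at least 10 fragments, with medians of 0.01 and -0.03. The lists of pathway genes were chosen with earlier results of these data known. Among receptors, Snupn, the adaptor that imports spliceosomal snRNPs and that itself depends on Xpo1 for recycling, was at 209 and 303 FPKM in non-injection, 392 and 175 with PIASy-Mut and 41.2 and 18.8 with PIASy-WT. PIASy-WT did not overlap the other groups, with log2 fold changes of -3.13 (adjusted P = 0.0328) and -3.19 (adjusted P = 0.0302). Cse1l, the exportin that returns importin alpha to the cytoplasm, was at 30.5 and 27.0 FPKM in non-injection, 39.3 and 20.5 with PIASy-Mut and 11.7 and 6.76 with PIASy-WT. Its PIASy-WT libraries were the lowest, but it did not pass, with an adjusted P of 0.0725 and 0.0744.

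In the Ran cycle, Ranbp1, which helps to release Ran from receptors, fell in both comparisons (log2 fold change -1.31, adjusted P = 0.0458, and -1.47, adjusted P = 0.0371). Rangap1, the GTPase-activating protein of Ran, fell against PIASy-Mut (-1.90, adjusted P = 0.0487) and had an adjusted P of 0.0561 against non-injection. Ran itself was at 57.6 and 65.5 FPKM in non-injection, 75.4 and 62.4 with PIASy-Mut and 34.8 and 34.5 with PIASy-WT, with an adjusted P of 0.0914 and 0.0644. Both PIASy-WT libraries were thus below the rest for Ran, Ranbp1 and Rangap1, and also for Rcc1, there on 11 and 1 fragments. That order held for 24.4% of all genes tested. For Nutf2, the import factor of Ran, they lay below PIASy-Mut but overlapped non-injection, with an adjusted P of 0.978 and 0.374. For Ranbp3 they lay above non-injection and overlapped PIASy-Mut, with log2 fold changes of 0.31 and -0.23 that did not pass.

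Of 13 pore subunits whose symbols the rule did not take in, Ranbp2 and Tpr fell against non-injection and Ranbp2 also fell against PIASy-Mut. Among all genes tested, 5.76% and 6.01% fell in these comparisons. The medians of the list were -0.23 and -0.35. Ranbp2, the large protein of the cytoplasmic filaments, was at 20.6 and 17.9 FPKM in non-injection, 21.6 and 12.5 with PIASy-Mut and 3.99 and 3.63 with PIASy-WT (-2.07, adjusted P = 0.0328, and -1.86, adjusted P = 0.0373). Tpr, the main basket filament protein, had an adjusted P of 0.0427 against non-injection and one of 0.0591 against PIASy-Mut. Sec13, Pom121 and Nupl1 had both PIASy-WT libraries above all others, with log2 fold changes of 0.66, 0.34 and 0.40 against non-injection, and did not pass. Of 16 mRNA export genes, Nxf1, the principal mRNA export receptor, fell in both comparisons (-1.82, adjusted P = 0.0469, and -1.82, adjusted P = 0.0478), and its partner Nxt1 fell against non-injection (-1.55, adjusted P = 0.0402), with an adjusted P of 0.103 against PIASy-Mut. The THO subunit Thoc1 was nearly level, at 45.4 to 56.5 FPKM in all 6 libraries, with PIASy-WT at the lower end. Pcid2 and Ddx19a had both PIASy-WT libraries above all others, with log2 fold changes of 0.75 and 0.57 against non-injection that did not pass.

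No transport gene passed the limma test between PIASy-Mut and non-injection, with 0 called, 0 at an unadjusted P under 0.05 and 0 called by voom. The background was 0% lower and 0.00621% higher, the single gene being Pias4. The median log2 fold change was 0.04 for the transport genes and for all genes tested, with a range from -0.67 (Kpna4) to 0.54 (Kpna7). These values do not bound single genes closely, and the PIASy-Mut libraries varied more than those of the other groups. The chi-square of the fragment counts between replicates per degree of freedom was 14.3 in PIASy-Mut, 3.90 in non-injection and 4.10 in PIASy-WT, where 1 would be sampling noise alone.

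The spread of the PIASy-Mut libraries ran along the same genes. PIASy-Mut replicate 1 was above replicate 2 for 32 of the 41 transport genes (78%), and for all 24 of those whose PIASy-WT libraries lay below all others. Among all genes tested the share was 48%, and among all genes whose PIASy-WT libraries lay below the rest it was 85.3% (3355 of 3932). Of the 24 genes, 21 had PIASy-Mut replicate 1 above both non-injection libraries (87.5%) and 20 had replicate 2 below both (83.3%), beside 66.5% and 58.9% of the 3932 genes. Xpo1 in PIASy-Mut, for example, was at 117 and 53.5 FPKM, on either side of the non-injection values of 75.1 and 63.9. Kpna3 went the other way, at 186 and 297.

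**Figure D5:**
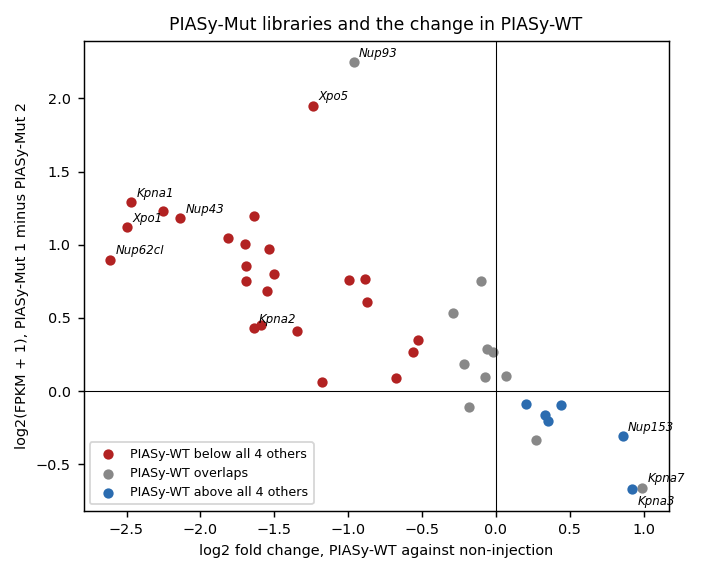
Difference in log2(FPKM + 1) between the 2 PIASy-Mut libraries (y axis, replicate 1 minus replicate 2) against the log2 fold change of PIASy-WT against non-injection (x axis) for the 41 nuclear transport genes tested. The 24 genes with PIASy-WT below all 4 other libraries (red) are all above 0 on the y axis, and the genes above them (blue), including Kpna3 and Nup153, are below 0. The axes share no library.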

How the data were processed

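RNA-seq of 6 libraries in 3 groups was used, mapped to groups and replicate numbers by the sample labels. Per the paper, 5 embryos per library were amplified with SMART-Seq v4 (11 cycles) and Nextera XT (13 cycles). Reads were trimmed by the authors below Q20 with trim_galore and aligned to mm10 by STAR, and featureCounts gave uniquely mapped fragments per gene. The single deposited table holds FPKM, that is fragments scaled by gene length and by library size. Tool versions, annotation release and strand setting are not given in the sources used here. ERCC spike-in RNA was added at lysis but the table has 0 such rows, so levels are shares of each library.

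FPKM times gene length, divided by the value of 1 fragment, was whole (tolerance 0.01) for 100% of values, which gave depths and counts. Gene lengths equalled those of GENCODE M21 for 40 of the 43 genes. The floor of 3 fragments covers counting error only, while the 95% intervals are those of limma and reflect the spread between libraries. Fold changes are differences of log2(FPKM + 1), which understate changes of low genes, fitted with limma 3.58.1 (R 4.3.3, lmFit and eBayes with a trend) on all 6 libraries over genes at an FPKM of 1 or more in at least 2 libraries, with Benjamini-Hochberg adjustment over all genes tested. The authors used DESeq2. The paper calls its replicates biological but does not say whether these came from separate collections, so P measures the spread between these libraries. An exact permutation test of 2 against 2 libraries cannot go below P = 0.333 (two-sided) and was not used. In simulated counts the fit called a minority of the changed genes, and its false calls were genes with almost no fragments. A second background at 10 fragments was therefore added. The simulation gave every gene and group the same spread between replicates, unlike these libraries, so it does not show where false calls fall here.

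Genes described in every library were those called, Kpna7, Kpna2, Kpnb1, Xpo1, and the highest and lowest by mean in each class, 22 in all. Others named were chosen after their values were seen. The members and lists were chosen with earlier results of these data known. Sequence sharing is the percent of 50-base sequences found in another gene. The 16 alternatives were other pseudocounts, filters, scalings and fits, a replicate block, voom on recovered fragments and leaving out each library. Python 3.11.15, numpy 2.4.6, pandas 2.3.3 and matplotlib 3.10.9 were used. Repeat elements were not analysed here.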

Additional observations from a re-analysis of the deposited data

How the results depend on the processing

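The number of transport genes called depended on the fit, while the log2 fold changes of Xpo1, Nup62cl, Kpna1 and Kpna2 were negative under all 16 alternatives in both comparisons. Against non-injection, 4 genes were lower in the reported fit, 0 without a filter on low values, 9 at an FPKM of at least 5, 10 (and 1 higher) with only the groups compared, 0 by eBayes without a trend, and 17 (and 2 higher) by voom. Leaving out 1 library gave 0 to 11 lower and 0 to 1 higher, with a median from -1.00 to -0.73. Against PIASy-Mut, 4 were lower in the reported fit, 0 without a filter, 10 at an FPKM of at least 5, 2 after quantile normalization, 0 with only the groups compared, 1 by eBayes without a trend and 15 by voom. Leaving out 1 library gave 0 to 13 lower and 0 to 1 higher, with a median from -1.07 to -0.46. The 0 with only the groups compared holds for all genes, with 0 of 16100 called against PIASy-Mut and 3776 at an unadjusted P under 0.05. Of all genes, 0.553% were lower against non-injection without a filter, 17.4% at an FPKM of at least 5, 9.71% (and 4.53% higher) with only the groups compared, 1.59% without a trend and 11.8% (and 4.99% higher) by voom. Against PIASy-Mut the shares were 0.873%, 17.9%, 0%, 2.88% and 11.7%, and 3.04% after quantile normalization. The cause of these changes was not tested, other than that fewer or more genes entered the adjustment under the filters and 1 library less left its group with 1, which was assumed to vary like the others.

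The median log2 fold change against non-injection was -1.18 with a pseudocount of 0.1, -0.545 with 5, -1.18 at an FPKM of at least 5 and -1.17 by voom. Against PIASy-Mut it was -1.13, -0.42, -1.20 and -1.16. Between PIASy-Mut and non-injection it was -0.34 without PIASy-Mut replicate 1 and 0.23 without replicate 2, and 0 transport genes were called under any alternative. Quantile normalization moved the median of all genes to 0.12 and 0.11 in the comparisons of PIASy-WT.

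With the replicate number as a block, 5 transport genes were lower against non-injection and 6 against PIASy-Mut, beside 4.47% and 4.96% of all genes. Those added were Nup43 (adjusted P = 0.0345 and 0.0331 by limma) and, against PIASy-Mut, Nup35 (0.0462). The deviations of same-numbered libraries correlated at 0.00368, 0.0851 and 0.0637 over genes. These correlations cannot decide whether same-numbered libraries came from the same collection, which the sources do not state. They were not treated as pairs in the reported fit.

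The direction turned under at least 1 alternative for 8 of the 41 genes tested (Nup54, Nup62, Nup88, Nup188, Nup214, Tnpo2, Xpo6 and Xpo7), none of which passed. When 1 library was left out, the log2 fold change against non-injection ran from -0.27 to 0.15 for Nup188, from -0.17 to 0.0251 for Nup214, from -0.45 to 0.0829 for Nup88 and from -0.50 to 0.29 for Xpo6, and against PIASy-Mut from -0.29 to 0.49 for Xpo6. Over all alternatives the change against non-injection ran from -0.15 to 0.23 for Nup54, from -0.14 to 0.36 for Nup62 and from -0.59 to 0.00781 for Tnpo2, and against PIASy-Mut from -0.13 to 0.27 for Xpo7. After quantile normalization Nup214 was at 0.21 and 0.12. Depth limits genes with few fragments, such as Nup210, Ipo13, Ipo4, Nup188 and Nup210l in PIASy-WT.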
